A study of Mus musculus with 12 samples.

Results

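The data described here are the expression values of 8 genes of the erythroid lineage, namely the transcription regulators Gata1, Zfpm1, Klf1 and Gfi1b, the erythropoietin receptor gene Epor, the anion exchanger gene Slc4a1 and the carbonic anhydrase genes Car1 and Car2. They were chosen by name, and each stood on a single row among the 31340 gene rows of the study, which carry 31272 gene names. RNA was sequenced from bone marrow cells of wild-type (WT) mice sorted as hematopoietic stem cells (HSCs), in 12 libraries with 3 in each of 4 groups. Ctrl mice were the controls, IR mice were exposed to ionizing radiation, and Ab_IR and L_IR mice were irradiated groups with a further treatment whose abbreviations (Ab and L) the labels do not spell out. Cells were taken at 3 days after IR. No transgene, sex or age was given for these libraries, and nothing stated whether a library came from 1 mouse or a pool, so p-values measure the spread between libraries, which may be in part technical.

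Red cell formation is directed by a small circuit of transcription factors. GATA1, whose activity depends on its cofactor FOG-1 (the product of Zfpm1), switches on the genes of the erythroid programme and restrains those of stem and myeloid cells, and it also serves megakaryocytes, mast cells and eosinophils. KLF1 (EKLF) binds CACCC boxes in globin and membrane protein genes. GFI1B is a repressor that recruits histone demethylase complexes. EPOR passes the erythropoietin signal to JAK2 and STAT5 in committed progenitors. At the end of the programme stand band 3 (Slc4a1), which exchanges chloride for bicarbonate across the red cell membrane, and the cytosolic carbonic anhydrases encoded by Car1 and Car2, which convert carbon dioxide to bicarbonate.

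Since several of these genes are bound by the same factors, the promoter letters were read for the members that a RefSeq table (GRCm38.p6) covers, which were Gata1, Zfpm1, Klf1, Gfi1b and Epor. The 250 bases before each RefSeq start were searched on both strands for the CACCC box (CACCC, or GGGTG on the other strand) and for a GATA motif, for which the letters AGATAA as well as TGATAA, and likewise AGATAG as well as TGATAG, were accepted along with their reverse complements. The motifs shown share no base with each other. The CACCC box was found in 5 of the 5 windows and in 52.1% of all 32536 promoter windows, and the GATA motif in 3 of the 5 and in 26.5% of all. Klf1, Gfi1b and Epor held both motifs, and Gata1 held a pair of CACCC boxes. Their stretches are shown 5′ to 3′ on the gene's strand with the motifs in capitals. None covers an annotated exon of its gene in GENCODE M21, although that of Gata1 lies within the annotated gene span.
Klf1 (GRCm38, chr8:84901856-84901919, plus strand): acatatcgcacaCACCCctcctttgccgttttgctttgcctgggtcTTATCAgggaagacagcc
Gfi1b (GRCm38, chr2:28622085-28622178, minus strand): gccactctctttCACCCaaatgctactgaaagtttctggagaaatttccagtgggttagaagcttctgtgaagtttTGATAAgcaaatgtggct
Epor (GRCm38, chr9:21963613-21963738, minus strand): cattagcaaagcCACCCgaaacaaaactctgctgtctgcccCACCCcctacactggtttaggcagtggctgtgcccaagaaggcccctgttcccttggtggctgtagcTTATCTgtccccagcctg
Gata1 (GRCm38, chrX:7967946-7967996, minus strand): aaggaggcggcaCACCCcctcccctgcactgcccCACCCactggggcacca
The GATA motif began 80 bases before the RefSeq start of Klf1, 120 bases before that of Gfi1b and 54 bases before that of Epor. A match describes letters only, and no binding was measured in these libraries.

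Values were deposited as FPKM, the number of fragments per kilobase of transcript, scaled to library size, without read counts, so the depth behind each value is unknown. By the study's methods, the HSC gate takes c-Kit and Sca-1 positive marrow cells that lack CD34, Flt3 and antigens of mature lineages, among them the erythroid antigen Ter-119. The labels mark the cells as HSCs. Of 12 stem cell markers, the gate genes Ly6a (Sca-1), at 25.9 to 61.5 FPKM, and Kit, at 6.70 to 25.45 FPKM, were the most abundant, and 5 markers stayed under 1 FPKM in all libraries, whereas the immunoglobulin gene Igkc reached 9409 to 24973 FPKM and the myeloid peroxidase gene Mpo 2859 to 3432 FPKM. Ctrl replicate 1 stood apart, where 44.1% of rows were listed at 0 (24.7% to 27.3% elsewhere). The atrial transcript Nppa lay between 51.2 and 63.9 FPKM in all IR libraries and in Ctrl replicates 2 and 3, and the remaining 7 libraries had 0.26 FPKM or less. The contrasts of IR with Ab_IR and with L_IR therefore coincide with that split.

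The members spanned a wide range of levels, and IR libraries were the lowest for each of them. Among Ctrl libraries, Car1 had the highest mean with 545 ± 52.3 FPKM (SD, n = 3), followed by Car2 with 393 ± 15.4, Slc4a1 with 95.8 ± 11.9, Klf1 with 65.2 ± 13.5, Gata1 with 37.8 ± 1.02, Zfpm1 with 31.0 ± 4.88, Gfi1b with 30.9 ± 2.07 and Epor with 20.9 ± 2.002 FPKM. Zfpm1 and Gfi1b did not differ beyond their spread in Ctrl. Among all rows of a Ctrl library, Car1 stood at positions 63, 89 and 90, and Epor at 2639, 2905 and 2433. FPKM are scaled by gene length, so these are comparisons of level between genes.

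**Figure D1:**
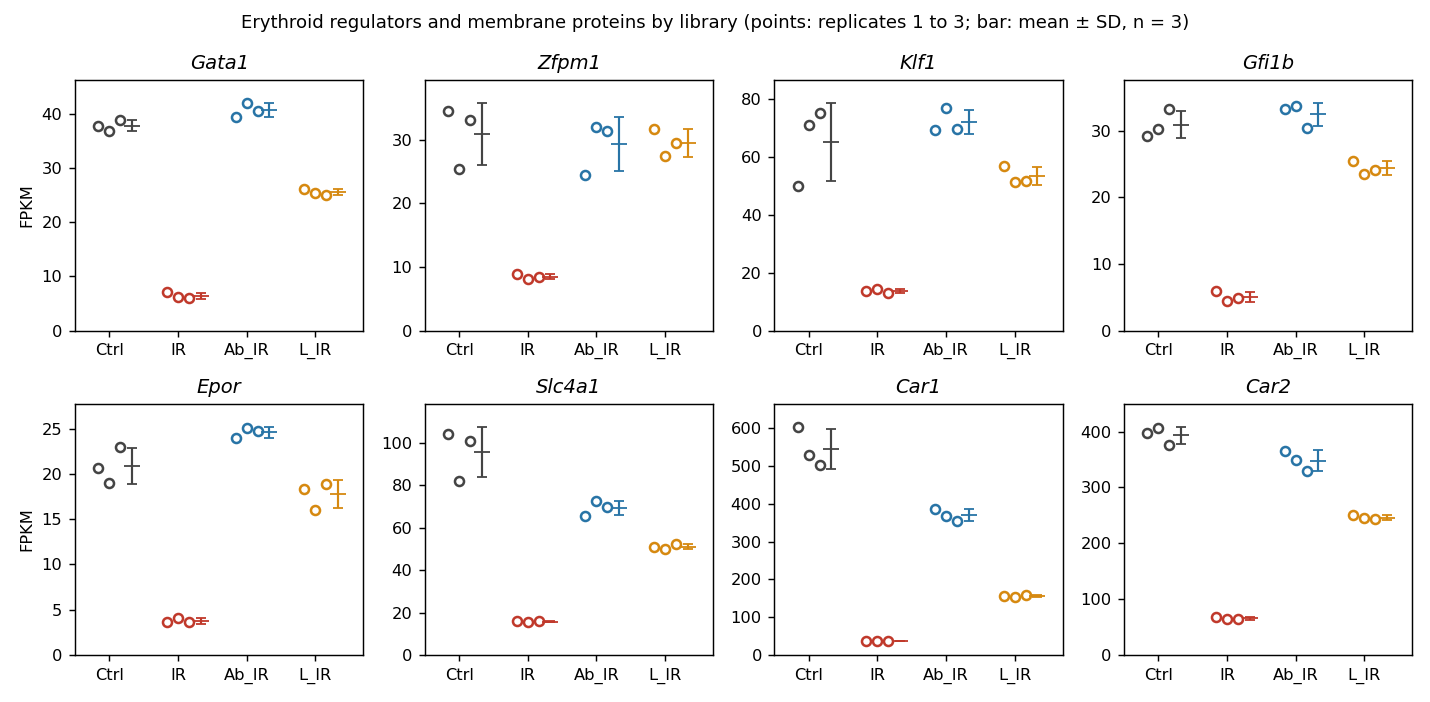
FPKM of the 8 genes in each of the 12 libraries, on linear axes that start at 0, with open points for replicates 1 to 3 of Ctrl, IR, Ab_IR and L_IR and a bar for the group mean ± SD (n = 3). In each panel the 3 IR points lie below the other 9, and L_IR lies between IR and Ab_IR without overlap for every gene but Zfpm1.

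Irradiation alone was compared with Ctrl to ask how the transcripts of HSCs stood at 3 days after exposure. All 8 genes fell, to between 6.73% (Car1) and 27.4% (Zfpm1) of their Ctrl mean. Each was called, that is, had a Benjamini-Hochberg adjusted p under 0.05 in limma and an absolute log2 fold change above 1, against 7.6% of the 12072 genes tested in this comparison and 4.57% called lower. On the adjusted p alone, 8 of 8 passed against 43.1% of all genes. The median log2 fold change of the 8 genes was -2.40, beside -0.05 for all genes tested. Log2 fold changes are on the scale of log2(FPKM + 1), which understates the change of low genes.

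Gata1 was listed at 37.77, 36.80 and 38.84 FPKM in the Ctrl libraries and at 7.04, 6.18 and 6.0 FPKM in the IR libraries. The highest IR library thus stayed far below the lowest Ctrl library, and the log2 fold change was -2.39 (SE 0.0733, limma adjusted p = 8.69e-06). Its cofactor gene Zfpm1 read 34.52, 25.43 and 33.06 FPKM in Ctrl and 8.91, 8.08 and 8.50 FPKM in IR. The groups did not overlap, and the change of -1.74 (SE 0.121, limma adjusted p = 1.4e-04) had the smallest size among the 8.

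Klf1 read 49.83, 70.89 and 74.94 FPKM in Ctrl and 13.67, 14.23 and 13.11 FPKM in IR. Ctrl replicate 1 was the low library of its group, yet it remained above all IR libraries, and Klf1 fell by 2.15 on the log2 scale (SE 0.154, limma adjusted p = 1.56e-04). Gfi1b read 29.22, 30.30 and 33.22 FPKM in Ctrl against 5.92, 4.41 and 4.86 FPKM in IR, so that the log2 fold change was -2.40 (SE 0.107, limma adjusted p = 3.05e-05). Epor, the receptor of the circuit, read 20.68, 18.97 and 22.96 FPKM in Ctrl and 3.59, 4.12 and 3.61 FPKM in IR, with a log2 fold change of -2.19 (SE 0.0909, limma adjusted p = 2.57e-05). It had the lowest level of the 8 in IR as in Ctrl.

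The genes for the red cell products fell as well, to 16.4% (Slc4a1), 16.6% (Car2) and 6.73% (Car1) of their Ctrl mean, where Gfi1b stood at 16.4%. Slc4a1 read 104.13, 82.20 and 101.06 FPKM in Ctrl and 15.81, 15.56 and 15.80 FPKM in IR, so that the log2 fold change was -2.53 (SE 0.0982, limma adjusted p = 1.95e-05). Car2 read 396.80, 405.95 and 375.97 FPKM in Ctrl and 67.95, 63.91 and 63.78 FPKM in IR, so that the log2 fold change was -2.57 (SE 0.0641, limma adjusted p = 5.26e-06). Car1 dropped from 603.79, 528.23 and 503.47 FPKM to 37.28, 37.18 and 35.67 FPKM. Its log2 fold change of -3.85 (SE 0.0832, limma adjusted p = 5.11e-06) had the largest size of the 8, and Car1 passed from above Car2 in every Ctrl library to below it in every IR library. In bulk RNA of a sorted population, fewer cells that carry a transcript and less of it per cell cannot be told apart.

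**Figure D2:**
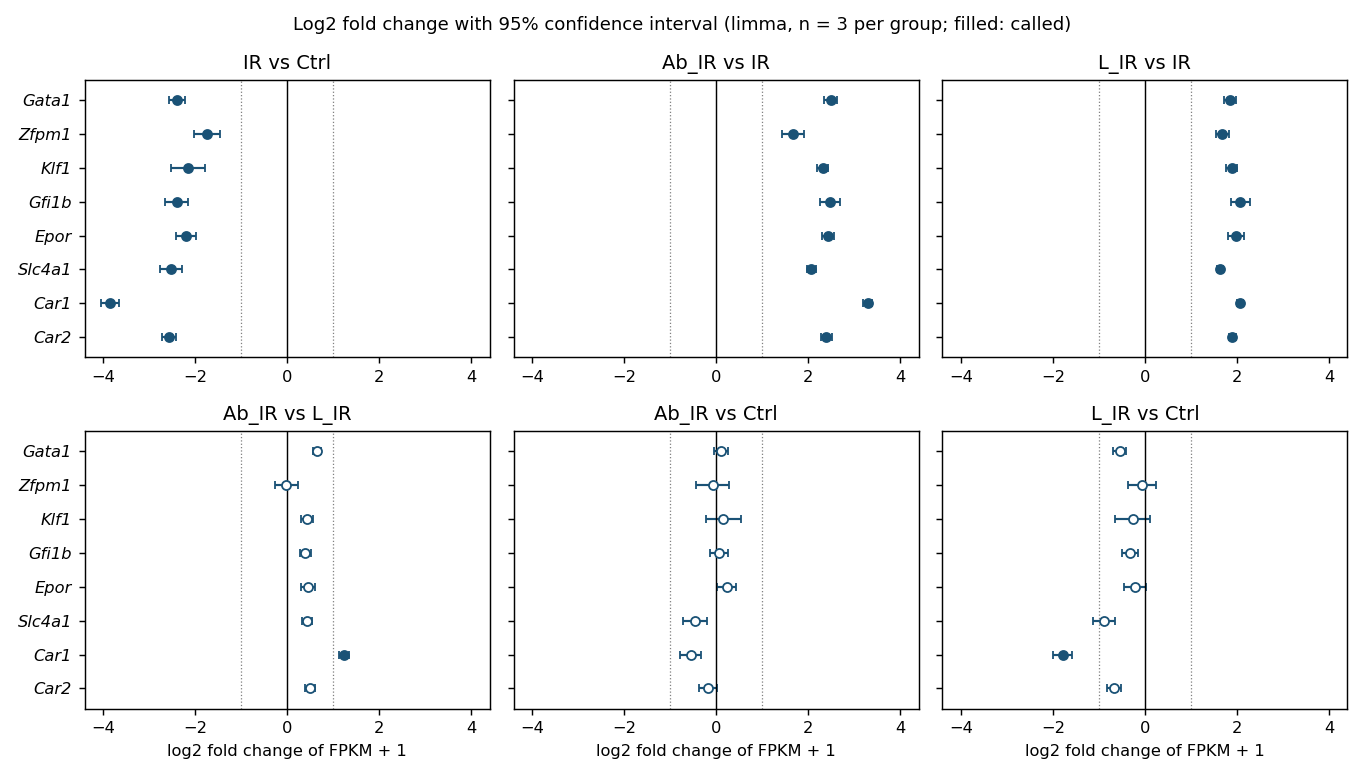
Log2 fold change of FPKM + 1 for the 8 genes in the 6 comparisons, coded as the first group minus the second, with 95% confidence intervals from limma (n = 3 per group) and dotted lines at -1 and 1. Filled points were called, which holds for 8 genes in each of the 3 upper panels, for Car1 alone in Ab_IR against L_IR and in L_IR against Ctrl, and for no gene in Ab_IR against Ctrl.

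The Ab_IR libraries were compared with IR to ask what the addition labelled Ab changed in irradiated mice. All 8 genes were higher with Ab, by 3.45-fold (Zfpm1) to 10.08-fold (Car1) in the ratio of mean FPKM, and 8 of 8 were called beside 7.57% of the 12067 genes tested, 5.11% being called higher. On the adjusted p alone the background was 68.7%. The median log2 fold change of the 8 was 2.41, beside 0.06 for all genes tested.

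Gata1 was listed at 39.43, 42.07 and 40.58 FPKM in Ab_IR, and all 3 libraries lay above the IR libraries by a log2 fold change of 2.50 (limma adjusted p = 1.34e-07). Zfpm1 reached 24.42, 32.03 and 31.48 FPKM (1.67, limma adjusted p = 7.75e-06), with Ab_IR replicate 1 the low library. Klf1 reached 69.37, 76.93 and 69.65 FPKM (2.31, limma adjusted p = 1.1e-07). These values of the regulators were 94.5% (Zfpm1) to 110% (Klf1) of the Ctrl mean.

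Gfi1b rose to 33.24, 33.72 and 30.42 FPKM (2.47, limma adjusted p = 8.29e-07) and Epor to 23.96, 25.11 and 24.80 FPKM (2.43, limma adjusted p = 9.91e-08). Among the products, Slc4a1 rose to 65.80, 72.52 and 69.74 FPKM (2.07, limma adjusted p = 7.11e-08). Car1 rose to 386.97, 368.84 and 354.29 FPKM, with a log2 fold change of 3.30 (limma adjusted p = 1.46e-08), and Car2 to 365.25, 349.62 and 329.35 FPKM, with 2.40 (limma adjusted p = 6.38e-08). These last 3 genes had Ab_IR means below Ctrl, as had Zfpm1, at 72.4% (Slc4a1), 67.9% (Car1) and 88.6% (Car2) of it.

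The L_IR libraries, compared with IR in the same way, also had all 8 genes higher, by 3.25-fold (Slc4a1) to 4.81-fold (Gfi1b). All 8 were called beside 6.22% of the 12163 genes tested (4.09% called higher), and on the adjusted p alone the background was 66.8%. The median log2 fold change of the 8 was 1.89, beside 0.07 for all genes tested. This comparison and the one before it share the 3 IR libraries, so they are not independent of each other.

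Gata1 was listed at 26.11, 25.45 and 25.04 FPKM in L_IR (log2 fold change over IR 1.84, limma adjusted p = 5.08e-07). Klf1 stood at 56.78, 51.35 and 51.60 FPKM (1.89, limma adjusted p = 2.65e-07) and Gfi1b at 25.53, 23.46 and 24.14 FPKM (2.07, limma adjusted p = 2.23e-06). Zfpm1, at 31.77, 27.40 and 29.47 FPKM (1.68, limma adjusted p = 9.31e-07), was the only member whose L_IR and Ab_IR libraries overlapped.

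Epor reached 18.33, 16.01 and 18.94 FPKM (1.97, limma adjusted p = 1.15e-06) and Slc4a1 51.02, 49.80 and 52.29 FPKM (1.64, limma adjusted p = 4.61e-08). Car2 reached 250.24, 244.59 and 242.89 FPKM (1.90, limma adjusted p = 4.28e-08). Car1 reached 156.44, 152.98 and 159.93 FPKM (2.06, limma adjusted p = 2.37e-08), which was 28.7% of its Ctrl mean and the lowest such share of the 8 in L_IR.

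The contrasts with IR were also read with the split by Nppa in view. Without Ctrl replicate 1, IR against Ctrl lies within the Nppa-carrying libraries, and all 8 genes were called there too. With the split as a term in a fit of all 12 libraries, all 8 remained called in Ab_IR against IR, with log2 fold changes of 1.42 (Zfpm1) to 3.07 (Car1), and in L_IR against IR, with 1.44 (Zfpm1) to 2.43 (Klf1). That term rests on the difference between Ctrl replicate 1 and the other Ctrl libraries.

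Ab_IR and L_IR were compared directly, since a difference between the additions is shown only by this test. Car1 alone was called, with 370.03 ± 16.4 FPKM in Ab_IR and 156 ± 3.48 FPKM in L_IR (log2 fold change 1.24, SE 0.0428, limma adjusted p = 1.13e-05), where 0.533% of the 12194 genes tested were called and 0.295% called higher. Gata1 followed with 0.65 (limma adjusted p = 5.16e-05), then Car2 with 0.50 (limma adjusted p = 3.09e-04), Epor with 0.45 (limma adjusted p = 0.00176), Slc4a1 with 0.43 (limma adjusted p = 5.28e-04), Klf1 with 0.43 (limma adjusted p = 0.00159) and Gfi1b with 0.40 (limma adjusted p = 0.0014). By the adjusted p, 7 of 8 passed beside 38% of all genes. In these 7 genes every Ab_IR library was above every L_IR library. The share of all genes with such a gap was not counted for any comparison, so the gap is not read as a trait of the 8 genes. Zfpm1 did not pass, with a difference of -0.019 and a 95% interval from -0.27 to 0.23 (limma adjusted p = 0.906).

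Against Ctrl, the 8 genes differed in how near they came to Ctrl. In Ab_IR none of the 8 was called by limma, where 0.923% of the 12134 genes tested were, 3 had an unadjusted p under 0.05, and on the adjusted p alone 1 passed beside 2.1% of all genes. That gene was Car1, with a log2 fold change of -0.55 (95% interval -0.79 to -0.32, limma adjusted p = 0.047). Its adjusted p stayed under 0.05 in 7 of 15 alternative settings and reached 0.246. Slc4a1 differed by -0.45 (95% interval -0.71 to -0.20, limma adjusted p = 0.109) and Car2 by -0.17 (-0.37 to 0.02, limma adjusted p = 0.27), and in both the Ab_IR libraries lay below all Ctrl libraries.

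Gata1 and Epor leaned the other way in Ab_IR. Gata1 stood 0.10 above Ctrl (95% interval -0.05 to 0.26, limma adjusted p = 0.373) and Epor 0.23 above it (0.03 to 0.44, limma adjusted p = 0.202), with every Ab_IR library above every Ctrl library and no passing test. Klf1 (0.16, interval -0.22 to 0.54), Gfi1b (0.07, interval -0.12 to 0.26) and Zfpm1 (-0.08, interval -0.44 to 0.29) overlapped Ctrl. For Klf1, Ctrl replicate 1 set the sign, which without it was negative (-0.019), and with the Nppa split as a term the difference was 0.52 (limma adjusted p = 2.72e-04).

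In L_IR, 5 of 8 genes were below Ctrl on the adjusted p, beside 8.84% of the 12251 genes tested, and 1 was called, beside 2.65% of all genes in either direction and 0.62% lower. Car1 was the gene called (-1.79, 95% interval -2.001 to -1.58, limma adjusted p = 1.15e-04). Slc4a1 stood at -0.89 on the log2 scale (95% interval of the difference -1.13 to -0.65, limma adjusted p = 0.0034), Car2 at -0.67 (-0.83 to -0.51, limma adjusted p = 0.00192) and Gata1 at -0.55 (-0.69 to -0.41, limma adjusted p = 0.0024). Gfi1b, at -0.33 (limma adjusted p = 0.0418), passed in 6 of 15 alternative settings. Klf1 (-0.27, interval -0.64 to 0.11), Epor (-0.22, interval -0.45 to 0.01) and Zfpm1 (-0.06, interval -0.36 to 0.25) did not pass. Without Ctrl replicate 1, Klf1 stood at -0.45 and passed the adjusted p, which it did in 1 of 15 alternative settings, and with the Nppa split as a term its sign turned (0.092).

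Ordered by group mean, Gata1, Klf1, Gfi1b and Epor ran from Ab_IR through Ctrl and L_IR to IR. In these 4 genes Ab_IR and Ctrl were neighbours that the test did not separate, and Ctrl was not separated from L_IR for Epor either, nor for Klf1 while Ctrl replicate 1 was kept. Slc4a1, Car1 and Car2 ran from Ctrl through Ab_IR and L_IR to IR, and of their neighbouring groups limma did not separate Ctrl from Ab_IR for Slc4a1 and Car2, whose adjusted p was under 0.05 in 3 and 2 of 15 alternative settings. Zfpm1 ran from Ctrl through L_IR and Ab_IR to IR, with the first 3 groups not separated.

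**Figure D3:**
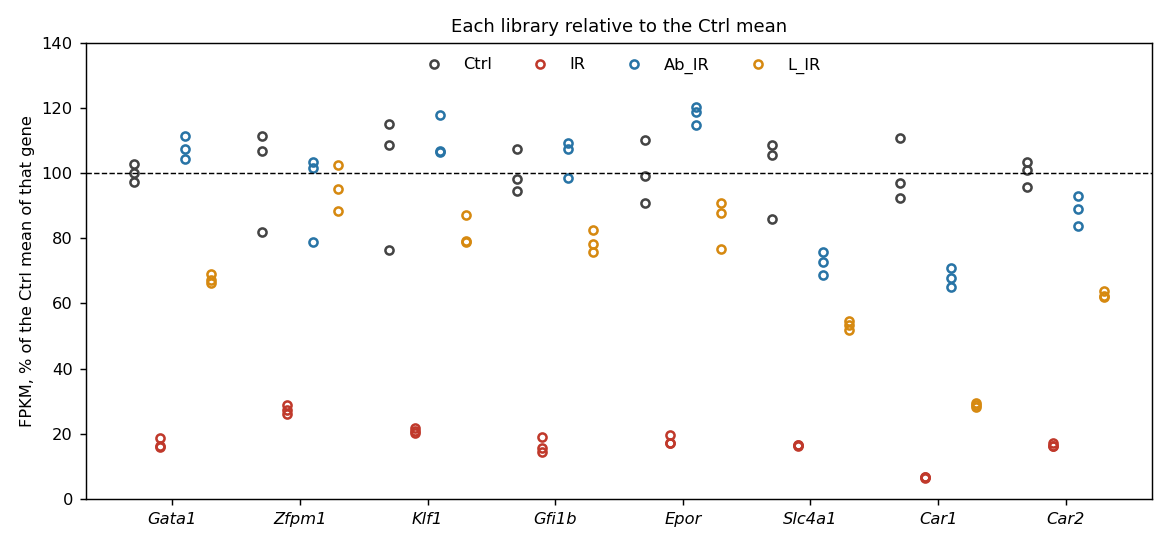
FPKM of each library as a percentage of the Ctrl mean of the same gene, with 1 open point per library and the Ctrl mean as a dashed line at 100. IR points of all 8 genes lie lowest, L_IR runs from 28.7% (Car1) to 95.3% (Zfpm1) on average, and Ab_IR from 67.9% (Car1) to 118% (Epor).

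Ratios within a library, which do not depend on its scaling, showed how unequally the paired genes stood. In Ctrl libraries Car1 over Car2 was 1.39 ± 0.118 (SD, n = 3). It was 0.563 ± 0.0169 in IR, whereas Ab_IR had 1.06 ± 0.0109 and L_IR 0.636 ± 0.0191, and no group overlapped another. Car1 and Car2 lie on chromosome 3 with 77904 bases between them, and Car3 sits in that gap. Gfi1b was compared with its paralog Gfi1, which acts mainly in myeloid and lymphoid cells. Gfi1b over Gfi1 was 0.999 ± 0.0145 in Ctrl and 0.0940 ± 0.0132 in IR, while it was 1.08 ± 0.0787 for Ab_IR and 0.874 ± 0.0444 for L_IR. Gfi1 itself averaged 30.9 FPKM in Ctrl and 53.8 FPKM in IR (log2 fold change 0.78, limma adjusted p = 2.18e-04), so the genes of this pair stood on opposite sides of Ctrl in IR.

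Gata1 was set beside Gata2, which precedes it in stem and progenitor cells, and beside Spi1, which encodes the myeloid factor PU.1 that antagonizes GATA1. Gata1 over Gata2 averaged 2.29 in Ctrl and 1.25 in IR, 2.39 with Ab and 1.81 with L, with the IR and L_IR ranges below those of the other groups. Gata1 over Spi1 was 0.637 ± 0.0742 in Ctrl and 0.0522 ± 0.00319 in IR, then 0.522 ± 0.0448 with Ab and 0.352 ± 0.00519 with L, a ratio that was added after values had been seen. Gata1 over Zfpm1 was 1.24 ± 0.185 in Ctrl and 0.754 ± 0.0432 in IR, then 1.41 ± 0.181 with Ab and 0.867 ± 0.0555 with L, so that the IR and L_IR libraries lay below every Ctrl and Ab_IR library. Slc4a1 over Gata1 was 2.53 in Ctrl and 2.47 in IR but 1.70 in Ab_IR and 2.0 in L_IR.

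**Figure D4:**
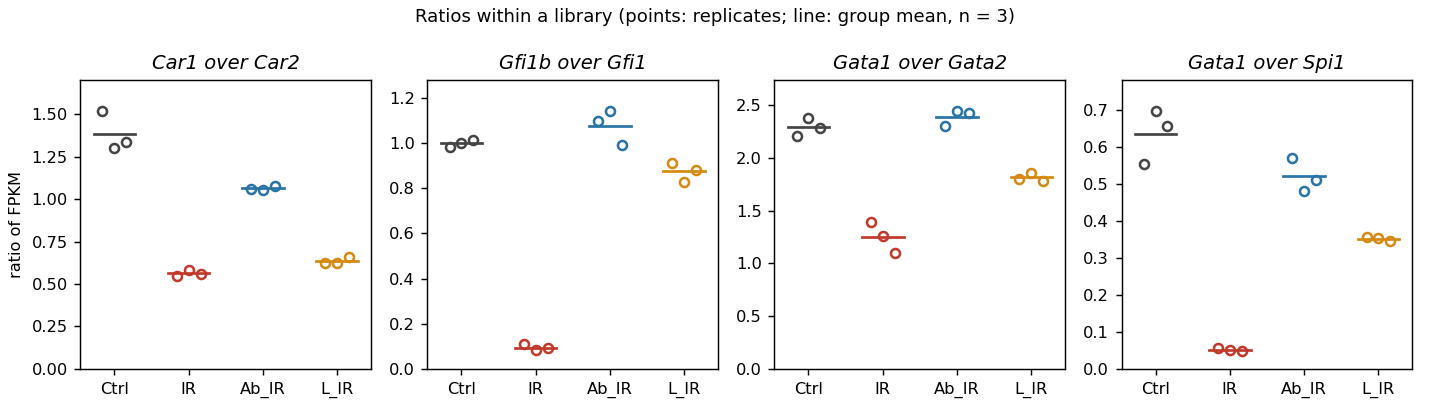
Ratio of FPKM within each library for Car1 over Car2, Gfi1b over Gfi1, Gata1 over Gata2 and Gata1 over Spi1, with points for replicates, lines for group means (n = 3) and axes that start at 0. The 3 IR libraries have the lowest ratio in each panel, at 0.0824 to 0.108 for Gfi1b over Gfi1 against 0.826 to 1.14 in the other groups.

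Other genes of the erythroid programme were read from lists of transcription regulators, of erythropoietin signalling, of the red cell membrane, of carbonic anhydrases and of globins with heme synthesis. In the counts over lists, genes that fell or rose, or were lower or higher, are those called, past both the adjusted p and the fold threshold, unless the adjusted p alone is named. In IR against Ctrl, 4 of the 21 other regulators fell, where 4.57% of all genes did, and the list's median was -0.38. By the limma adjusted p alone, 12 of 21 were lower and 2 higher, where 3084 of all 12072 genes tested were lower and 2115 higher. Gata2 fell by 1.51, Sox6, which helps to silence embryonic globin, by 1.28, and Tal1, a partner of GATA1, by 1.26 on the log2 scale. Spi1 was the regulator called higher (1.03, limma adjusted p = 5.01e-04), and Gfi1 passed the adjusted p but not the fold threshold. All genes tested had a median of -0.05.

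Among erythropoietin signalling genes other than Epor, 4 of 18 tested fell in IR, beside 4.57% of all genes, and none rose beyond the fold threshold. By the adjusted p alone 7 were lower and 6 higher, where 3084 of all 12072 genes tested were lower and 2115 higher. Tfr2, which encodes a transferrin receptor that associates with EPOR, fell by 1.96, the stem cell factor receptor gene Kit by 1.63 and the transferrin receptor gene Tfrc by 1.02. Without Ctrl replicate 1 the count of genes that fell was 2, so it is not read as a result about this list. The kinase gene Jak2, which carries the EPOR signal, stood at -0.50 and was not called, and the list's median was 0.05.

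The membrane and cytoskeleton list fell with Slc4a1, with 12 of 22 tested genes lower (16 by the adjusted p alone), 0 higher and a median of -1.89. Of all genes tested, 4.57% were called lower, and 43.1% passed the adjusted p in either direction. The water channel gene Aqp1 fell by 3.38 and the Rh antigen gene Rhd by 2.60. All 12 tested genes for globins and heme synthesis fell (median -1.81), led by Hbb-bs (-2.72), Hba-a2 (-2.71) and Alas2 (-2.70), which encodes the first enzyme of heme synthesis in red cells. Of the other carbonic anhydrases only 4 of 14 passed the filter, of which Car3 was called lower (-1.62), while Car13 (-0.71, limma adjusted p = 0.0111) and Car9 (-0.54, limma adjusted p = 0.00702) were lower by the adjusted p alone. Car3 averaged 2.89 FPKM in Ctrl, far below its neighbours Car1 and Car2.

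**Figure D5:**
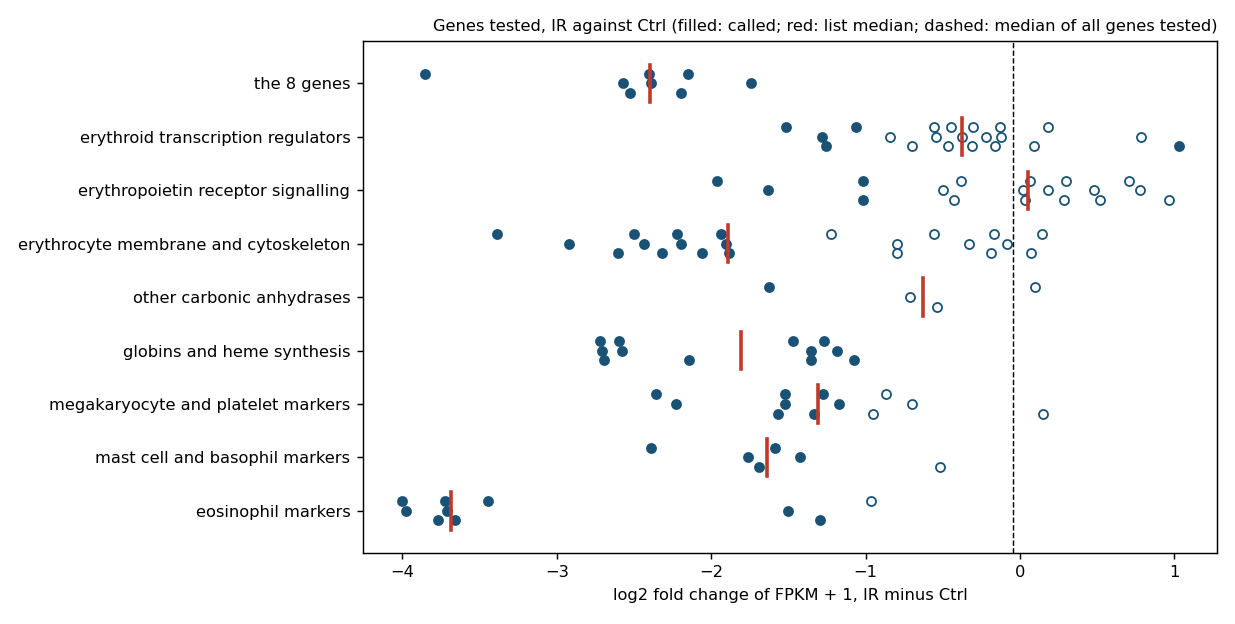
Log2 fold change of FPKM + 1 in IR minus Ctrl for every tested gene of the 8 members, 5 erythroid lists and 3 marker lists of other lineages, filled where called, with the list median in red and the median of all genes tested (-0.05) dashed. The regulator and erythropoietin lists have medians of -0.38 and 0.05, while all tested genes of the members and of the globin, mast cell and eosinophil lists lie to the left of the dashed line.

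In Ab_IR against IR, the membrane list had 14 of 22 genes higher and the globin and heme list 11 of 12, with Aqp1 (3.11), Rhd (2.74), Hba-a2 (2.70), Hba-a1 (2.68) and Hbb-bs (2.66) leading. Of the regulators, 2 of 21 rose, namely Gata2 (1.55) and Tal1 (1.29), beside 5.11% of all genes called higher, so the count is not read as a result about this list. By the adjusted p alone, 13 of 21 were higher and 3 lower. Of the signalling list 2 of 18 rose, Tfr2 (1.85) and Kit (1.28), while Podxl (-1.92), which encodes a sialomucin, and the ubiquitin ligase gene Cbl (-1.13) fell. The 2 tested genes of the other carbonic anhydrases were not called, although both passed the adjusted p.

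In L_IR against IR, where 4.09% of all genes were called higher, the membrane list again had 14 of 22 higher, with Aqp1 (2.73), Ermap (2.11) and Rhd (2.08) leading, and the globin and heme list had 7 of 12, with Hbb-bs (1.64), Hba-a2 (1.61) and Alad (1.58). Gata2 (1.30) and Tal1 (1.03) rose among the regulators, the count being 1 without L_IR replicate 1, and by the adjusted p alone 12 of 21 were higher and 2 lower. Tfr2 (1.66) and Kit (1.26) rose and Podxl fell (-1.86) in the signalling list.

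Between Ab_IR and L_IR, the genes called in these lists were the globin genes Hba-a1 (1.17), Hba-a2 (1.09) and Hbb-bs (1.02), all higher in Ab_IR. In the membrane list limma called 0 of 22 at the fold threshold, beside 0.533% of all genes, with a median of 0.23. By the limma adjusted p alone 18 of 22 passed (16 higher and 2 lower in Ab_IR) beside 38% of all genes, and 19 had an unadjusted p under 0.05. In L_IR against Ctrl, 5 of 12 globin and heme genes were lower, beside 0.62% of all genes, with Alas2 (-1.20), Hbb-bt (-1.17) and Hba-a2 (-1.10) leading. Podxl (-1.58) and Car3 (-1.19) were lower there too. In Ab_IR against Ctrl, Podxl (-1.64) and Car3 (-1.02) were lower, and Car3 was no longer called when Ctrl replicate 1 or any Ab_IR library was left out.

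Among markers of other lineages, the eosinophil list, the mast cell and basophil list and the megakaryocyte and platelet list moved with the members. In IR against Ctrl, 9 of 10 tested eosinophil markers fell. So did 5 of 6 tested mast cell and basophil markers and 8 of 12 tested megakaryocyte and platelet markers, and none of them rose. Of all genes tested, 4.57% were called lower and 3.03% higher. Summed over its list, the eosinophil level was 5017 to 6613 FPKM in Ctrl and 424 to 434 in IR, with 7123 to 7270 for Ab_IR and 3030 to 3068 for L_IR, and its leading gene Prg2 ranged from 236 to 4230 FPKM. The mast cell and basophil sum was 606 to 688 FPKM in Ctrl and 222 to 231 in IR, with 802 to 854 for Ab_IR and 503 to 527 for L_IR, led by Prss34 (125 to 483 FPKM). The tryptase genes Tpsab1 and Tpsb2, which mark connective tissue mast cells, averaged 0.13 FPKM or less in every group.

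The megakaryocyte and platelet sum was 80.6 to 92.3 FPKM in Ctrl and 20.2 to 24.0 in IR, with 181 to 185 for Ab_IR and 114 to 122 for L_IR, and its leading gene Ppbp ranged from 1.70 to 67.53 FPKM. Thus this list exceeded its Ctrl sum in both Ab_IR and L_IR, which Car1, Car2 and Slc4a1 did not. The neutrophil and monocyte list was split in IR against Ctrl, with 3 of 12 genes higher, namely Lcn2 (2.14), S100a8 (1.70) and S100a9 (1.38), and 2 lower, namely Ly6c2 (-2.14) and Csf1r (-1.02), beside 3.03% of all genes called higher. Its sum was 11058 to 12835 FPKM in Ctrl and 16478 to 16745 FPKM in IR, with 11998 to 12580 for Ab_IR and 8864 to 9082 for L_IR. Against IR, limma called 2 of 12 higher and 3 lower in Ab_IR, where 2.46% of all genes were called lower, and 2 higher and 6 lower in L_IR, where 2.13% were. The log2 fold change of Mpo was -0.020 to 0.020 in the 3 contrasts that involve IR. The B and plasma cell sum was 10104 to 13329 FPKM in Ctrl and 17556 to 18802 FPKM in IR, with 17984 to 18615 for Ab_IR and 25761 to 26640 for L_IR. Most of it was Igkc, which averaged 10575 FPKM in Ctrl, 16901 FPKM in IR and 24476 FPKM in L_IR. In IR against Ctrl, 2 of 8 tested B and plasma cell markers were called higher and 0 lower. By the adjusted p alone 5 were higher and 1 lower, where 2115 of all 12072 genes tested were higher and 3084 lower. The part of these lineages in the values of the 8 genes was not tested.

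Macrophage markers, led by Cd68 (18.5 to 28.1 FPKM), summed to 98.1 to 100.3 FPKM in Ctrl and 79.5 to 89.2 FPKM in IR, with 115 to 126 for Ab_IR and 112 to 131 for L_IR. The list was split in IR against Ctrl. Of 9 tested macrophage markers 2 were called lower, beside 4.57% of all genes, and 0 higher. By the adjusted p alone 3 were lower and 2 higher, where 43.1% of all genes passed. Among osteoclast markers, looked at because Car2 is also an osteoclast gene, Acp5 ranged from 18.6 to 27.1 FPKM and 4 of the 8 markers with a row stayed under 1 FPKM in all libraries. Acp5 was lower in IR than in Ctrl (log2 fold change -0.25, limma adjusted p = 0.0447), as Car2 was, whereas Mmp9, also a neutrophil granule gene, was higher (31.4 against 13.3 FPKM). The summed level was 55.8 to 57.8 FPKM in IR and 41.1 to 44.6 FPKM in Ctrl, the rise lying in Mmp9, with 39.1 to 43.6 for Ab_IR and 29.0 to 30.2 for L_IR. Stem cell markers, led by Ly6a (25.9 to 61.5 FPKM), summed to 60.4 to 70.4 FPKM in Ctrl and 65.5 to 72.6 FPKM in IR, with 60.0 to 66.5 for Ab_IR and 70.5 to 71.0 for L_IR. This sum joins moves in both directions. Of 5 tested stem cell markers, Kit was the one called in IR against Ctrl (-1.63). By the limma adjusted p alone, 1 was higher, namely Ly6a (0.75), and 3 were lower, Kit among them, where 43.1% of all genes passed. The part of these markers in the members' values was not tested either.

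The genes whose pattern over the 12 libraries was most like that of each member were found by Pearson's r of log2(FPKM + 1) among the 7657 genes that averaged 5 FPKM or more. For Gata1 they were the eosinophil peroxidase gene Epx (0.999), the heme synthesis gene Alad (0.996) and Rhd (0.996). For Klf1 they were Stard10 (0.998), Blvrb (0.997) and Cldn13 (0.996), for Gfi1b Pdlim1 (0.996), Add2 (0.995) and Sh2d4a (0.995), and for Epor Alox15 (0.997), Ptdss2 (0.997) and Sec14l2 (0.996). Zfpm1 was nearest to Thra (0.991), Abcg4 (0.991) and Itm2c (0.990).

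Among the products, Slc4a1 was nearest to Adgrg1 (0.996), Flt3 (0.996) and Atp1b2 (0.995), Car1 to the globin gene Hbb-bt (0.998), Alas2 (0.996) and Nr4a1 (0.995), and Car2 to the blood group gene Kel (0.997), Aldh1a7 (0.996) and Mfsd2b (0.996). Between members r ran from 0.892 (Zfpm1 and Car1) to 0.993 (Gata1 and Car2). The 12 points fall into 4 groups with IR apart from the rest and are not independent.

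By GENCODE M21 (GRCm38), Gata1 lies on chromosome X from 7959260 to 7978071, Zfpm1 on chromosome 8 from 122282141 to 122337251, Klf1 on chromosome 8 from 84901928 to 84905291 and Gfi1b on chromosome 2 from 28609450 to 28621982. Epor lies on chromosome 9 from 21958897 to 21963506, Slc4a1 on chromosome 11 from 102348824 to 102366203, Car1 on chromosome 3 from 14766216 to 14808368 and Car2 on chromosome 3 from 14886273 to 14900770. Zfpm1 overlaps the readthrough gene Gm20388 on the same strand over 55111 bases, the whole annotated span of Zfpm1, and no row carried the name Gm20388. Car1 overlaps Gm16399 (0 to 0.44 FPKM) over 219 bases. Reads in these parts, for Zfpm1 the whole gene, could be counted to either gene.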

How the data were processed

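The authors deposited a table per library with gene names and values in FPKM, which were read as such because FPKM multiplied by GENCODE M21 exon length in kb summed to 913838 to 945611 per library. The submitters' processing notes name fastp, HISAT2, StringTie and GRCm38 (mm10), whereas the study's methods name fastp, RSEM and DESeq2. Which of these made the deposited values was not settled, and strand use in counting is not given in the sources used here. Library kits were stranded poly(A) kits per the labels.

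Groups came from the treatment labels. For each pair of groups, log2(FPKM + 1) of the 6 libraries was modelled in limma 3.58.1 (R 4.3.3, trended eBayes), keeping genes that reached 1 FPKM in 3 or more libraries. DESeq2 was not applied, since FPKM are not counts. All p-values are two-sided and adjusted over all genes tested. The 6 comparisons share group libraries with one another. Members, lists and tests were chosen with earlier results of these data known. Named genes were the members, up to 3 rises and falls per erythroid list and comparison, the leading marker of each other list and the 3 most similar genes. A gene of the membrane list that this rule names is not reported here. Gfi1, Jak2, Mmp9, the called neutrophil and monocyte genes, Kit as a stem cell marker, the tryptase genes and the ratio to Spi1 were chosen after their values were seen. No row carried the names Fam132b, Car10, Ahsp or Calcr, which were not analysed here. Alternatives were a pseudocount of 0.1, no filter, a mean FPKM of 5 or more, quantile normalization, median ratio scaling, limma without trend, all 12 libraries in 1 fit, the replicate number as a block, a term for the Nppa split, and the omission of each library. Scripts were tested on simulated data. Python 3.11.15 with matplotlib 3.10.9 drew the figures.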

Additional observations from a re-analysis of the deposited data

How the results depend on the processing

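Over 720 values of the members' log2 fold changes under 15 alternatives per comparison, 712 kept their direction and side of the threshold, and all 8 genes stayed called in every alternative of the 3 comparisons with IR. In Ab_IR against L_IR, Zfpm1 changed sign without Ab_IR replicate 1 (0.10) and without L_IR replicate 1 (0.033), with a range of -0.086 to 0.10 over left-out libraries. In Ab_IR against Ctrl, Zfpm1 changed sign without Ctrl replicate 1 (0.0046) and without Ab_IR replicate 1 (0.045, range -0.21 to 0.045), and Klf1 without Ctrl replicate 1 (-0.019, range -0.019 to 0.27 over left-out libraries, and 0.52 with the Nppa split as a term). In L_IR against Ctrl, Zfpm1 changed sign without Ctrl replicate 1 (0.023, range -0.19 to 0.023), and with the Nppa split as a term Klf1 did (0.092) while Slc4a1 passed the fold threshold (-1.01), which raised the members called from 1 to 2. The cause was not tested.

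Counts over all genes moved by more than 1.5 times under some alternatives. With a pseudocount of 0.1 they were 1512 in Ab_IR against IR, 1294 in L_IR against IR and 165 in Ab_IR against L_IR, where the share called higher fell from 55.4% to 37.6%. With a mean of at least 5 FPKM they were 577 (IR against Ctrl), 556 and 469, fewer genes being tested, and the share called higher in Ab_IR against L_IR was 67.3%. With the Nppa split as a term they were 1960 and 1554 against IR (77.8% higher for L_IR) and 811 and 876 against Ctrl. In Ab_IR against Ctrl they were 73 with no filter and 60 to 65 without an Ab_IR replicate. Quantile normalization lowered the share called higher in L_IR against IR from 65.7% to 54.9%.

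Same-numbered replicates did not deviate together (18 pairs, r from -0.38 to 0.30, 4 over 0.1), so the numbers were not taken as pairs. With the replicate number as a block, the members called were unchanged and 928, 914, 756, 66, 92 and 294 genes were called over the 6 comparisons. Depth could not be assessed from FPKM.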
